A study of Mus musculus with 6 samples.

Results

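The circular RNAs (circRNAs) of the receptors and Smad proteins of TGF-beta, activin and BMP signalling were described in the mouse cortex after status epilepticus. They were chosen by host gene name, as every row of the deposited circRNA table whose source gene was 1 of 10 listed genes: the type I receptors Acvr1, Bmpr1a and Tgfbr1, the type II receptors Acvr2a, Bmpr2 and Tgfbr2, the receptor-regulated Smads Smad1, Smad2 and Smad5, and the common-partner Smad Smad4. The rule gave 18 of the 11171 circRNAs listed (0.161%), from 7 of the 10 genes. Bmpr1a, Tgfbr1 and Tgfbr2 had no row, and no row under another host name overlapped any of the 10 genes. A circRNA has a row because junction reads were listed for it in at least 1 library, so that the presence of these 18 is the basis of the choice and not a result.

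The libraries came from the cortex of 6-week-old male C57BL/6 mice, with 3 Control mice, 3 TLE mice and 1 library per mouse. TLE mice had received scopolamine methyl bromide, then pilocarpine to induce status epilepticus (SE), then diazepam to end it, all intraperitoneally, and their cortex was taken 24 h after SE. Control mice had received saline in place of each agent. The groups therefore differed in all these agents together with SE, and their contributions cannot be told apart. Whole cortex was sequenced after removal of ribosomal RNA, so that fewer cells of a type and less RNA per cell cannot be told apart either.

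Ligands of the TGF-beta family bind pairs of type II and type I receptor kinases at the cell surface. The type II receptor activates the type I receptor, which phosphorylates receptor-regulated Smads; these join Smad4 and move to the nucleus, where they regulate transcription. Activin and TGF-beta act mainly through Smad2 and Smad3, and BMPs mainly through Smad1, Smad5 and Smad9. In the brain the pathway is known for its roles in blood vessel maturation and in the response of astrocytes to injury. A circRNA forms when the end of an exon is spliced back to the start of the same exon or of one upstream of it, and the reads across this junction are what was counted here. These reads measure the circRNA and not the linear mRNA of the same gene.

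The junctions of 5 receptor and Smad circRNAs are shown first, since the junction is the sequence by which each was detected; those of Smad2 and Smad4 are not shown. The 15 bases in lower case are the end of the last exon of the circRNA, and the 15 in capitals are the start of its first exon, which is exon 2 in all 5. They were joined from the GENCODE M21 transcripts of mouse build GRCm38 and read 5′ to 3′ on the transcribed strand.
Acvr2a mmu_circ_0006196: cttgttcctactcaaGTGCTATACTTGGCA
Bmpr2 mmu_circ_0005339: acacaacaccactcaCTTCTCAGAATCAAG
Smad1 mmu_circ_0010053: gagtggagagcccggGCGCTAACTGGGATC
Smad1 mmu_circ_0010052: atgagcttcgtgaagGCGCTAACTGGGATC
Smad5 mmu_circ_0001992: gcatatccagcagagGACTTGCACTAAGAA
The Acvr2a circRNA spans chr2:48870289-48873473 on the + strand and the Bmpr2 circRNA chr1:59813588-59815411 on the + strand. The Smad1 circRNAs span chr8:79371784-79372364 and chr8:79343654-79372364 on the - strand, and the capitals in their junctions are the same because both begin with exon 2. The Smad5 circRNA spans chr13:56723429-56728629 on the + strand.

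Of the 18 circRNAs, 17 began and ended exactly at annotated exon boundaries of their host (94.4%; 95% Wilson confidence interval 74.2 to 99.0%), compared with 83.6% of all circRNAs listed (82.9 to 84.3%). The exception was mmu_circ_0004248 of Smad2, which began on exon 2 and ended 170 bases into exon 11, the last exon, outside the coding sequence. The 17 circRNAs held a median of 3 exons and 621 nucleotides, where all circRNAs placed on a transcript held a median of 4 exons and 608 nucleotides. These lengths follow from the annotation, because junction reads do not show which exons in between were kept.

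The first exon was exon 2 of the transcript in 10 of the 17 (58.8%), and in 29.9% of all 9217 circRNAs placed. The start codon of the host lay within 10 of the 17 (58.8%, against 15.0% of all placed), namely the 8 Smad circRNAs that began with exon 2 and 2 of the Acvr1 circRNAs. The other 7 of the 17 lay wholly within coding sequence (41.2%), where 82.6% of all placed did. The intron upstream of the circRNA was the longest intron of the transcript in 9 of the 17 (52.9%), and in 25.0% of all placed. Its median length was 21477 bases, against 10308 bases over all placed, while the median downstream intron was 7285 bases against 8690. These shares are descriptions without a test, and circRNAs of the same host share exons and introns.

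The exon map shows how the circRNAs of a host overlap. The Acvr2a circRNA held exons 2 to 4 of 11, which code for residues 19 to 176 of the 513 of the receptor, the amino-terminal stretch in which activin receptors carry their ligand-binding domain. The Bmpr2 circRNA held exons 2 and 3 of 13, which code for residues 26 to 140 of 1038, again towards the ligand-binding end. The Smad circRNAs that began with exon 2 all included the amino terminus of the protein, where Smads carry the MH1 domain. The most frequent Smad1 circRNA was exon 2 alone, with residues 1 to 134 of 465, and a Smad4 circRNA of exons 2 to 4 held residues 1 to 152 of 551.

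**Figure D1:**
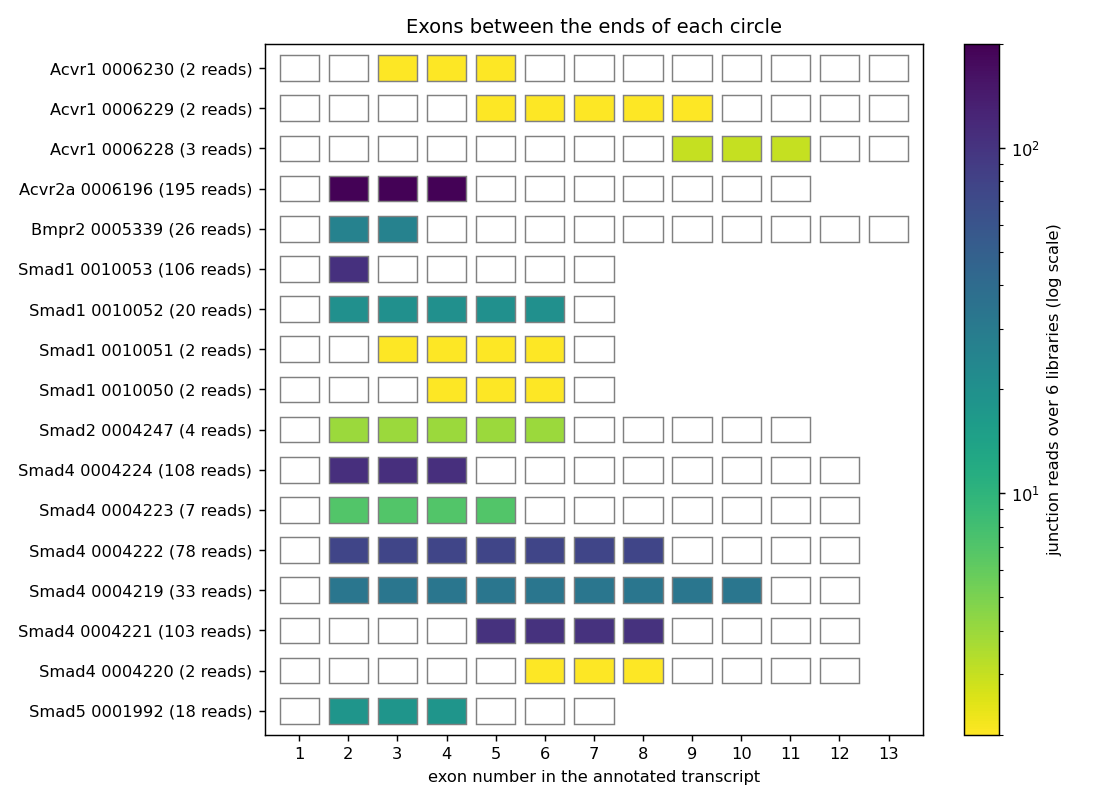
Exons held by the 17 circRNAs with both ends on exon boundaries. Each row is a circRNA, each box an exon of the annotated transcript by its number (horizontal axis, not to length), and filled boxes are the exons between the ends of the circRNA, coloured by junction reads over the 6 libraries on a log scale from 2 to 200; 10 of the 17 rows begin at exon 2, and the Smad4 circRNAs begin at exon 2, 5 or 6.

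Expression was deposited in SRPBM, a unit of spliced reads that puts junction reads on a common scale of mapped reads. Within a library every value was a whole multiple of the value of 1 junction read, between 8.55 SRPBM in Control 1 and 10.3 SRPBM in TLE 1, and the smallest value listed was 2 reads. The libraries held between 32504 (TLE 1) and 56516 (TLE 3) junction reads and between 3989 and 5976 circRNAs. The floor was set at 3 reads, 25.6 to 31.0 SRPBM, for counting error alone, and a listed 0 can also be a junction that had reads and was then filtered out by the authors. As a check of the tissue label, cell type markers were looked up as host genes. Of the 5 astrocyte markers 1 had a circRNA, Slc1a2, with sums of 0 to 17.2 SRPBM in Control and 0 to 34.6 SRPBM in TLE libraries. None of the 3 inhibitory neuron, 4 oligodendrocyte, 3 oligodendrocyte precursor, 4 microglial, 5 endothelial or 2 pericyte markers had one, so that this table checks the tissue label little.

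The 18 circRNAs together had 719 junction reads over the 6 libraries, with a median of 13 per circRNA where all circRNAs had a median of 5. The 5 most abundant, 1 of Acvr2a, 1 of Smad1 and 3 of Smad4, held 590 of these reads (82.1%), between 78 and 195 each. Values above 0 were listed in all 6 libraries for 4 of the 18 (22.2%; 13.9% of all circRNAs), and in exactly 1 library for 6 (33.3%; 45.4% of all). Per library, 11, 10 and 11 of the 18 were detected in Control 1, 2 and 3, and 10, 9 and 8 in TLE 1, 2 and 3 (10.7 ± 0.577 against 9.0 ± 1.0, SD, n = 3 each), which overlapped at 10. At 5 junction reads or more the numbers were 6, 7 and 6 in Control and 7, 6 and 6 in TLE, with the same mean of 6.33.

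By host, Smad4 had the highest summed level in both groups, with 500 ± 172 SRPBM in Control and 490 ± 121 SRPBM in TLE (SD, n = 3 each). Acvr2a followed with 326 ± 74.7 and 244 ± 212 SRPBM, and Smad1 with 162 ± 21.9 and 226 ± 55.0 SRPBM. The remaining hosts were lower: Bmpr2 with 27.4 ± 33.7 and 52.7 ± 31.8 SRPBM, Smad5 with 23.9 ± 20.7 and 28.8 ± 50.0, Smad2 with 28.6 ± 24.8 and 6.89 ± 11.9, and Acvr1 with 15.0 ± 14.1 and 6.89 ± 11.9. The lowest Smad1 value, 136.7 SRPBM in Control 1, lay above the highest value of these 4 hosts, 86.5 SRPBM of Smad5 in TLE 3. Among the 4 low hosts the values overlapped and their order was not resolved. Smad4 and Acvr2a also overlapped. Both stood at 316.1 SRPBM in Control 2, 34 reads each, and at 350.7 SRPBM in TLE 2, 40 reads each.

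**Figure D2:**
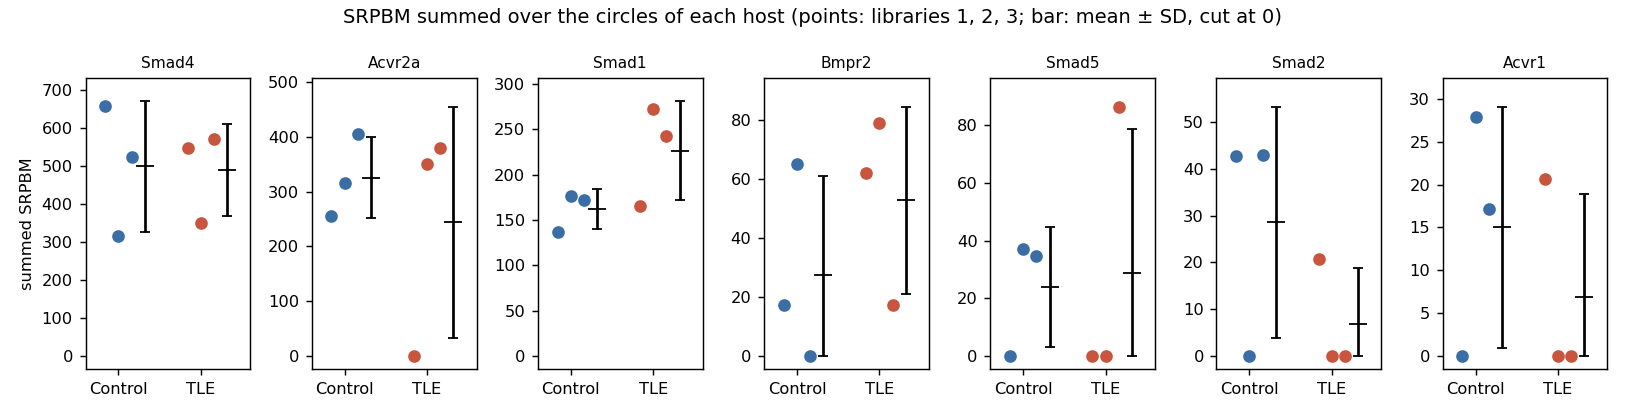
SRPBM summed over the circRNAs of each of the 7 hosts. Points are libraries 1, 2 and 3 of a group from left to right, and the horizontal mark with its bar is the mean ± SD (n = 3, bar ended at 0); each panel has its own vertical axis in SRPBM. The groups overlap in all 7 panels, and Acvr2a is listed at 0 in TLE 1 beside 256.4 to 404.8 SRPBM in the other 5 libraries.

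No receptor or Smad circRNA, and none of the sums over their 7 hosts, passed the threshold between TLE and Control mice with the values as deposited. The mean Smad4 sum was nearly the same in both groups, and the most negative differences were those of the exon 2 to 10 circRNA of Smad4 and of the Acvr2a circRNA, the latter set by TLE 1. TLE was compared with Control for every circRNA above 0 in at least 3 libraries, 4271 in all, by limma on log2(SRPBM + 17.1), with the lowest value listed above 0 as the pseudocount. Calls required a log2 fold change of 1.5 or more, up or down, and an unadjusted p under 0.05. Fold changes are on this log2 scale, where the pseudocount shrinks differences between low values. Of the 18 circRNAs, 10 entered the test and 0 were called, where 1.57% of all tested were (1.26% higher in TLE and 0.304% lower). These were 54 higher and 13 lower, a split that moved to 37 and 25 with libraries scaled to a common total and to 62 and 49 without TLE 3. The 8 that were not tested had between 2 and 7 reads each. An unadjusted p under 0.05 was reached by 1 of the 10 (5.2% of all tested), and an adjusted p under 0.05 by 0 (limma, Benjamini-Hochberg over all 4271; 0.0% of all tested). The groups overlapped in all 10, while they did not overlap in 11.1% of all tested (TLE above in 8.94% and below in 2.11%). The median log2 fold change was -0.06 over the 10 and 0.17 over all tested, with 4 of the 10 above 0 and 60.5% of all tested above 0. Summed by host, all 7 hosts were tested among 2157 and 0 were called (1.9% of all hosts tested), with an unadjusted p under 0.05 in 0 of 7 (6.17%) and groups that overlapped in all 7 (not overlapping in 12.7% of all hosts tested). For Acvr2a, Bmpr2 and Smad5, with 1 circRNA each, the host sum is that circRNA. With 3 mice per group these fits leave wide intervals, and a p above the threshold does not show equal levels.

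**Figure D3:**
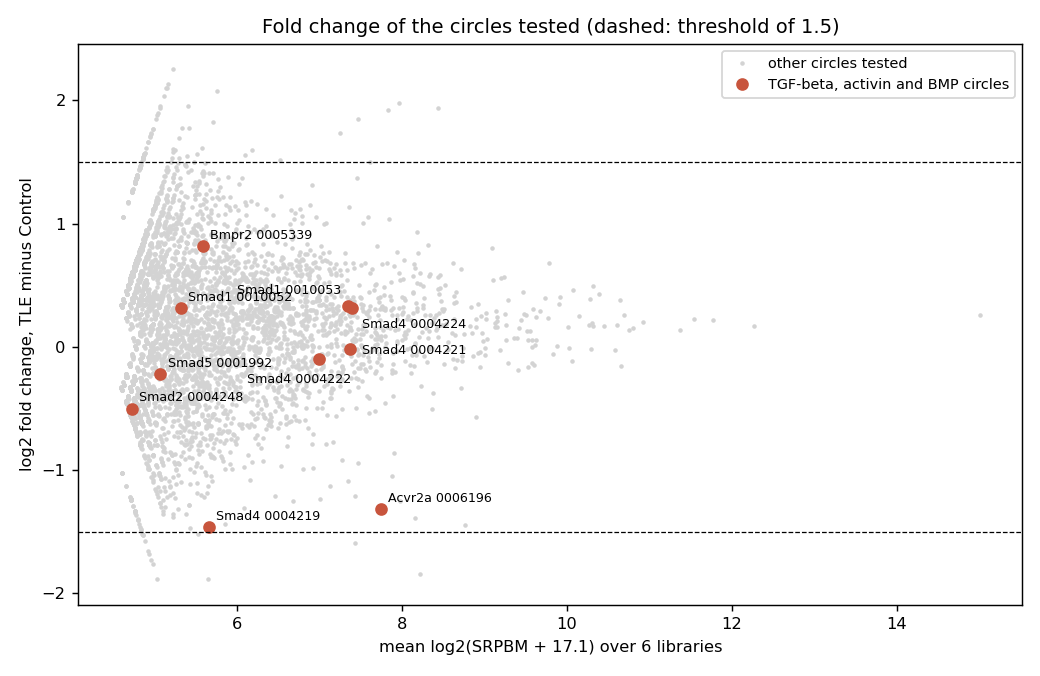
Log2 fold change (TLE minus Control, vertical axis) against the mean log2(SRPBM + 17.1) over the 6 libraries (horizontal axis) for the 4271 circRNAs tested, in grey, with the 10 of the TGF-beta, activin and BMP genes in red. Dashed lines mark the threshold of 1.5 in either direction; the 10 lie between -1.46 (mmu_circ_0004219 of Smad4) and 0.81 (Bmpr2), with all 10 inside the lines.

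Among the 3 listed type I receptors, Acvr1, which binds activins and BMPs and signals to Smad1 and Smad5, was the single gene with circRNAs. It had 3, each listed in 1 library. mmu_circ_0006228 held exons 9 to 11 of 13 and stood at 27.9 SRPBM in Control 2, from 3 reads. The other two had 2 reads each, 17.2 SRPBM in Control 3 for exons 5 to 9 and 20.7 SRPBM in TLE 1 for exons 3 to 5. Summed over the host, Acvr1 was listed at 0, 27.9 and 17.2 SRPBM in Control 1, 2 and 3, compared with 20.7, 0 and 0 SRPBM in TLE 1, 2 and 3. All these values were at or under 3 reads, so no fold is given, and the difference was not detectable at this depth (limma, adjusted p = 0.907). Bmpr1a (chromosome 14), a type I receptor of BMPs, and Tgfbr1 (chromosome 4), that of TGF-beta, had no circRNA to compare.

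Acvr2a, a type II receptor for activins, gave a single circRNA, and it was the most abundant of the 18. Its mean SRPBM ranked 168 among the 11171 circRNAs listed, so that 1.49% of them had a higher mean. It stood at 256.4, 316.1 and 404.8 SRPBM in Control 1, 2 and 3, from 30, 34 and 47 reads, and at 0, 350.7 and 380.7 SRPBM in TLE 1, 2 and 3, from 0, 40 and 44 reads. TLE 2 and TLE 3 thus lay within the range of the Control libraries, and TLE 1 stood alone at the listed 0. The log2 fold change was -1.31 (SE 0.79; limma, adjusted p = 0.922). Without TLE 1 it was 0.18 (SE 0.24), and the mean of TLE 2 and TLE 3, 366 SRPBM, was 1.12 times the Control mean. TLE 1 therefore decided both the size and the direction of the difference. With the libraries scaled to 1 common total SRPBM the log2 fold change was -1.59 (SE 0.68), past the threshold, with the same 0 in TLE 1. The unadjusted p (limma) of the -1.31 depended on the filter and the fit. It was 0.113 in the fit above, 0.000371 with no filter on low values (adjusted p = 0.296) and 0.00815 with a filter on the mean (adjusted p = 0.875). With a replicate block it was 0.0275 and without trend 0.241. Each of these fits held the 0 in TLE 1.

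The other 5 libraries had a mean of 342 SRPBM for the Acvr2a circRNA (SD 58.2), a level that corresponds to 33.1 reads in TLE 1. TLE 1 had the fewest junction reads of the 6 libraries, and the floor of 3 reads stood at 31.0 SRPBM there. Such single-library zeros were counted over the whole table. Of the 129 circRNAs with at least 30 reads in at least 5 libraries, 6 (4.65%) were listed at 0 in the sixth, 2 each in Control 2, TLE 1 and TLE 2. The Acvr2a circRNA was 1 of these 6, and the other 5 came from Fmn1, Tasp1, Acer3, Snrk and Arhgap32. At 10 reads or more in at least 5 libraries the number was 33 of 553 (5.97%), with 3, 5 and 2 in Control 1, 2 and 3 and 10, 8 and 5 in TLE 1, 2 and 3. A 0 of this kind was therefore found in both groups, and whether it stands for a missing circRNA or for a junction dropped in processing was not tested.

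**Figure D4:**
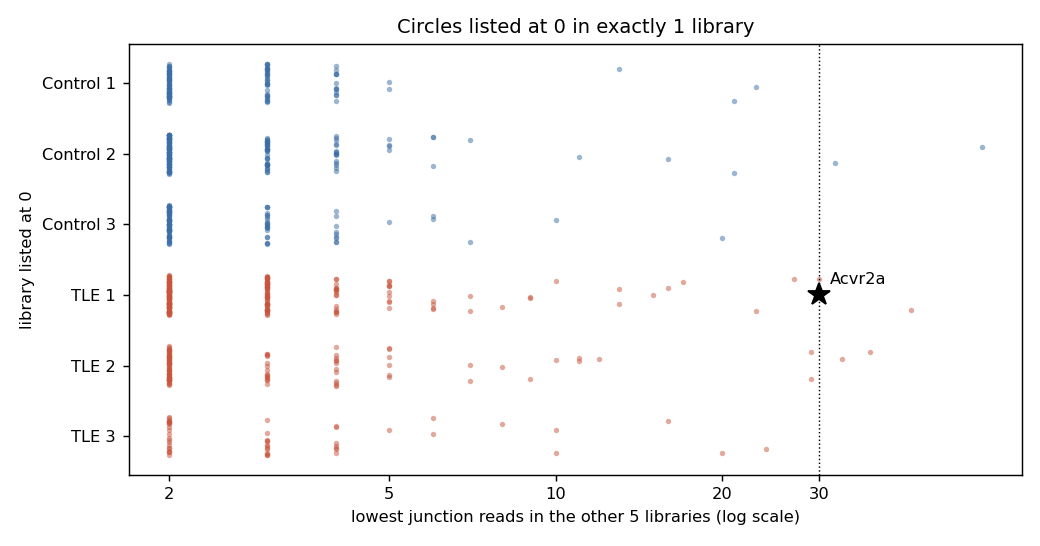
The 778 circRNAs above 0 in exactly 5 libraries, placed by the library in which they were listed at 0 (rows) and by the lowest junction reads among the other 5 libraries (horizontal axis, log scale); points are spread vertically within a row so that they can be seen. The star is the Acvr2a circRNA, with at least 30 reads in 5 libraries (dotted line) and 0 in TLE 1; 6 circRNAs lie at or beyond the line.

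Bmpr2, a type II receptor for BMPs, also gave a single circRNA. It stood at 17.1, 65.1 and 0 SRPBM in Control 1, 2 and 3, compared with 62.0, 78.9 and 17.3 SRPBM in TLE 1, 2 and 3, from 26 reads in all. The highest Control value lay between the TLE values, so the groups overlapped. The log2 fold change, 0.81 (SE 0.68), did not pass the threshold (limma, adjusted p = 0.922). It was 1.40 without Control 2, 1.26 without TLE 3, 0.52 without TLE 2 and 0.27 without Control 3. Tgfbr2 (chromosome 9), the type II receptor of TGF-beta, had no circRNA. The receptor circRNAs together summed to 273.5, 409.1 and 422.1 SRPBM in Control 1, 2 and 3 and to 82.6, 429.6 and 398.0 SRPBM in TLE 1, 2 and 3. Acvr2a made up 77.3 to 95.9% of this sum in the 5 libraries where it was listed, so that the low sum of TLE 1 was that of the Acvr2a circRNA.

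Among the receptor-regulated Smads, Smad1, which carries BMP signals, had the most reads. Its exon 2 circRNA, mmu_circ_0010053, of 581 nucleotides, stood at 94.0, 130.2 and 172.3 SRPBM in Control 1, 2 and 3, compared with 82.6, 236.7 and 225.0 SRPBM in TLE 1, 2 and 3. TLE 2 and TLE 3 lay above all Control values and TLE 1 below them. The log2 fold change was 0.33 (SE 0.39; limma, adjusted p = 0.922). It was 0.77 without TLE 1, 0.52 without Control 3, 0.13 without Control 1 or TLE 3 and 0.09 without TLE 2. The second Smad1 circRNA, mmu_circ_0010052 with exons 2 to 6 of 7, stood at 25.6, 46.5 and 0 SRPBM in Control, compared with 82.6, 35.1 and 0 SRPBM in TLE, where the groups again overlapped (log2 fold change 0.31, SE 0.75; limma, adjusted p = 0.933). TLE 1 was the library in which these 2 circRNAs were level at 8 reads each. The exon 2 circRNA made up 68.8, 73.7 and 100% of the Smad1 sum in Control 1, 2 and 3 and 50.0, 87.1 and 92.9% in TLE 1, 2 and 3. The remaining 2 Smad1 circRNAs, of exons 3 to 6 and 4 to 6, had 2 reads each, in TLE 3 and Control 1. Of the 4, 3 shared the end of exon 6 and 2 the start of exon 2. The Smad1 sum was 136.7, 176.6 and 172.3 SRPBM in Control and 165.3, 271.8 and 242.3 SRPBM in TLE, a log2 fold change of 0.42 (SE 0.33; limma, adjusted p = 0.891), with TLE 1 inside the Control range.

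Smad5, the closest relative of Smad1 here and likewise a BMP Smad, gave 1 circRNA, of exons 2 to 4 of 7 and 940 nucleotides. It was listed at 0, 37.2 and 34.5 SRPBM in Control 1, 2 and 3, compared with 0, 0 and 86.5 SRPBM in TLE 1, 2 and 3, from 18 reads. The highest value and 2 of the 3 zeros were in TLE. The TLE mean was above the Control mean while the log2 fold change was -0.22 (SE 0.77; limma, adjusted p = 0.959), so the direction depended on the scale. Smad2, which carries activin and TGF-beta signals, had 2 circRNAs that shared the start of exon 2. The one ending inside exon 11, mmu_circ_0004248, stood at 25.6, 0 and 25.8 SRPBM in Control, compared with 20.7, 0 and 0 SRPBM in TLE, at 3 reads or fewer in every library (limma, adjusted p = 0.922). The one of exons 2 to 6 had 2 reads each in Control 1 and Control 3. Their sum was 42.7, 0 and 43.1 SRPBM in Control 1, 2 and 3, with 20.7, 0 and 0 SRPBM in TLE 1, 2 and 3 (log2 fold change -0.83, SE 0.67; limma, adjusted p = 0.891). Control 2 was at 0 like 2 of the TLE libraries, so the groups overlapped.

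Smad4, which joins the receptor-regulated Smads of all branches, had 6 circRNAs and 331 reads, the most of the 7 hosts, and 13.2% of all hosts had 6 circRNAs or more. Its sum was 658.0, 316.1 and 525.4 SRPBM in Control 1, 2 and 3 and 547.5, 350.7 and 571.1 SRPBM in TLE 1, 2 and 3. The TLE values lay inside the Control range, and the log2 fold change was 0.00 (SE 0.30; limma, adjusted p = 0.999). The circRNAs were built from few ends: 4 of the 6 began at exon 2 of 12 and 3 ended with exon 8. Exons 2 to 4 and exons 5 to 8 were each circularised alone, in mmu_circ_0004224 and mmu_circ_0004221, and together, in mmu_circ_0004222.

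The exon 2 to 4 circRNA of Smad4, mmu_circ_0004224, stood at 179.5, 83.7 and 155.0 SRPBM in Control 1, 2 and 3, compared with 113.6, 157.8 and 268.2 SRPBM in TLE 1, 2 and 3 (log2 fold change 0.31, SE 0.37; limma, adjusted p = 0.922). The exon 5 to 8 circRNA, mmu_circ_0004221, stood at 170.9, 148.8 and 129.2 SRPBM in Control, compared with 227.3, 70.1 and 190.4 SRPBM in TLE (log2 fold change -0.02, SE 0.38; limma, adjusted p = 0.997). The circRNA of all these exons, mmu_circ_0004222, stood at 188.0, 65.1 and 120.6 SRPBM in Control, compared with 134.3, 78.9 and 112.5 SRPBM in TLE (log2 fold change -0.10, SE 0.40; limma, adjusted p = 0.962). All 3 were present in every library with overlapping groups, and in each the SE was larger than the size of the log2 fold change.

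The fourth, mmu_circ_0004219, reached from exon 2 to exon 10 and held residues 1 to 435, the longest coding stretch of the 17. It stood at 119.6, 18.6 and 103.4 SRPBM in Control 1, 2 and 3, from 14, 2 and 12 reads, and at 20.7, 26.3 and 0 SRPBM in TLE 1, 2 and 3, from 2, 3 and 0 reads. Control 1 and Control 3 were high, while Control 2 lay among the TLE values, so the groups overlapped. The log2 fold change was -1.46 (SE 0.65; limma, adjusted p = 0.878), just short of the threshold of 1.5, and it was the circRNA with an unadjusted p under 0.05 counted above. It passed the threshold with libraries scaled to a common total (-1.54), without Control 2 (-2.08) and without TLE 2 (-1.72). The unadjusted p rose above 0.05 without Control 1 (-1.11), Control 3 (-1.20), TLE 1 (-1.62) or TLE 3 (-1.05), and with a pseudocount of 8.55 or 1 SRPBM. Its share of the Smad4 sum was 18.2, 5.88 and 19.7% in Control and 3.77, 7.5 and 0% in TLE, again overlapping. Of the remaining 2 Smad4 circRNAs, the one of exons 2 to 5 was listed at 51.6 and 17.5 SRPBM in TLE 1 and TLE 2 and at 0 in the other 4 libraries, and the one of exons 6 to 8 had 2 reads, in Control 3.

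**Figure D5:**
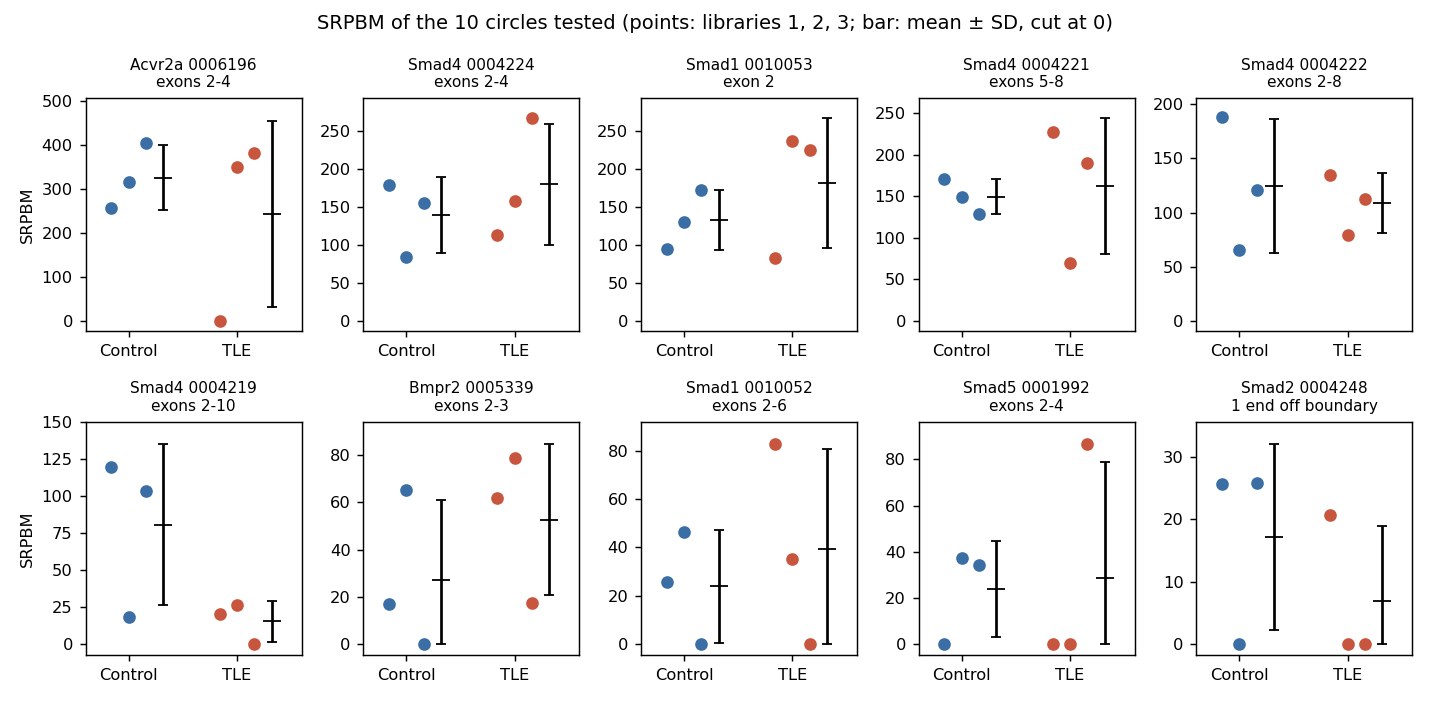
SRPBM of the 10 circRNAs tested, in order of total junction reads. Points are libraries 1, 2 and 3 of a group from left to right, and the horizontal mark with its bar is the mean ± SD (n = 3, bar ended at 0); each panel has its own vertical axis. The groups overlap in all 10 panels; Control 1 and Control 3 of mmu_circ_0004219 (119.6 and 103.4 SRPBM) stand above its other 4 libraries.

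Summed over the 18 circRNAs, the libraries held 1110.9, 939.0 and 1197.3 SRPBM in Control 1, 2 and 3 and 816.0, 1052.1 and 1297.9 SRPBM in TLE 1, 2 and 3 (1082.4 ± 131 against 1055.3 ± 241, SD, n = 3 each). The lowest and the highest sum were both in TLE. As a share of all circRNA SRPBM of the library, the sum was 0.316, 0.284 and 0.333% in Control and 0.243, 0.257 and 0.265% in TLE, where the groups did not overlap. The total under this share was 351493, 330961 and 360024 SRPBM in Control 1, 2 and 3 and 335753, 409021 and 489032 SRPBM in TLE 1, 2 and 3. It was highest in TLE 2 and TLE 3, whose shares lay below all Control shares although the Acvr2a circRNA was listed there. The share thus depends on the total as well as on the 18. Without the Acvr2a circRNA the shares were 0.243, 0.188 and 0.22% in Control and 0.243, 0.171 and 0.188% in TLE, which overlapped. Smad4 alone made up 59.2, 33.7 and 43.9% of the sum in Control and 67.1, 33.3 and 44.0% in TLE.

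The other genes of the pathway were taken from a list of 72, of which 21 had a circRNA. None of the 15 ligands, among them Tgfb1, Inhba and Bmp4, had one, while 5 of 11 other receptors and co-receptors, 1 of 4 other Smads, 2 of 13 extracellular regulators, 9 of 18 intracellular regulators and 4 of 11 nuclear partners and targets did. Of their 59 circRNAs 23 were tested, 1 was higher in TLE at the threshold and 0 were lower (1.26% and 0.304% of all tested). An unadjusted p under 0.05 (limma) was reached by 3 of the 23 (5.2% of all tested). The median log2 fold change was 0.23 beside 0.17 over all tested. The one higher was mmu_circ_0008718, exon 2 of Hipk2, a kinase that acts with Smads and their repressors. It stood at 17.1, 0 and 0 SRPBM in Control 1, 2 and 3, compared with 82.6, 35.1 and 34.6 SRPBM in TLE 1, 2 and 3 (log2 fold change 1.58, SE 0.64, limma adjusted p = 0.838). The groups did not overlap, with TLE above, as in 8.94% of all tested. The value in Control 1 was 2 reads, and the floor of 3 reads was 26.3 and 26.0 SRPBM in TLE 2 and TLE 3. Its 3 TLE libraries met the filter by themselves, so the call follows in part from the filter.

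By host sum 2 of 14 pathway genes tested were higher in TLE (1.53% of all hosts tested) and 0 lower, Hipk2 and Ppm1a. Ppm1a, a phosphatase of Smad2 and Smad3, had 20.7, 43.8 and 69.2 SRPBM in TLE 1, 2 and 3 and was listed at 0 in the 3 Control libraries (limma, adjusted p = 0.728). Ppm1a entered the test through its TLE libraries alone, and the TLE libraries of Hipk2 met the filter by themselves. The count of higher hosts therefore follows in part from the filter. Zfyve9, which brings Smad2 and Smad3 to the receptors, had the most circRNAs of the list, 11. Their sum was 341.8, 381.2 and 594.3 SRPBM in Control and 516.5, 569.9 and 614.4 SRPBM in TLE (log2 fold change 0.39; limma, adjusted p = 0.86), with Control 3 inside the TLE range. Smad3, the activin and TGF-beta Smad next to Smad2, was the other Smad with a circRNA, at 0, 0 and 25.8 SRPBM in Control and 0, 26.3 and 60.6 SRPBM in TLE (limma, adjusted p = 0.892). The other type I receptors Bmpr1b, Acvr1b and Acvr1c, named after their values were seen, had 3, 3 and 1 circRNAs. Bmpr1b, a type I receptor of BMPs, summed to 213.6, 83.7 and 86.1 SRPBM in Control 1, 2 and 3 and to 62.0, 149.0 and 181.7 SRPBM in TLE 1, 2 and 3, with overlapping groups. Neo1 had the most circRNAs of the other receptors (5), with sums from 68.4 to 120.9 SRPBM in Control and from 0 to 164.4 SRPBM in TLE. Ep300, a histone acetyltransferase that Smads recruit, had the most of the nuclear partners (8), with sums from 51.3 to 195.2 SRPBM in Control and from 72.3 to 175.3 SRPBM in TLE. Ltbp1, which stores latent TGF-beta in the matrix, had 1 circRNA, at 68.4, 18.6 and 0 SRPBM in Control and 93.0, 0 and 26.0 SRPBM in TLE.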

How the data were processed

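The authors depleted ribosomal RNA, built directional libraries, found back-spliced junctions with CIRI after BWA-MEM alignment and deposited, per circRNA, a normalized signal, SRPBM (junction reads scaled to the mapped reads of the library). The labels name build mm10. The authors tested with DESeq2. Each of the 6 sample files held the same table, which was read once. Replicate libraries differed beyond sampling noise.

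The receptor, Smad, pathway and marker lists were chosen with earlier results of these data known. SRPBM per read was taken from the step between values (100.0% of values whole multiples within 0.02 steps). Host sums left out 837 rows without a host gene and 61 naming several, none of them of the 10 genes. Ends and exons were placed on GENCODE M21 (GRCm38). limma 3.58.1 (R 4.3.3, lmFit, eBayes with trend, Benjamini-Hochberg) was fitted without a block to log2(SRPBM + 17.1) of 4271 circRNAs and 2157 host sums above 0 in at least 3 of 6 libraries. It was also run on simulated data with sampling noise alone, which does not show how it performs with the replicate spread here. Shares and detection numbers were described without a test. Named with values were the 10 hosts, circRNAs above 0 in at least 3 libraries or with the most reads of their host, and pathway genes with the most circRNAs of their class or past the threshold; further circRNAs of 2 to 7 reads were named after their values were seen. Junctions of the chromosome 18 hosts, matches to microRNA seeds and 1 cell type marker class are not reported here. Alternatives covered pseudocount, filter, scaling, trend, block, threshold and leaving out each library.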

Additional observations from a re-analysis of the deposited data

How the results depend on the processing

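Circles past the threshold numbered 67 over the whole table, 196 with a log2 fold change of 1, 168 with a pseudocount of 8.55 SRPBM, 130 with 1 SRPBM and 84 to 120 when each library was left out in turn. In the same order, host sums numbered 41, then 109, 77, 51 and 51 to 71. Of the receptor and Smad circRNAs 0 were past it, 1 with a log2 fold change of 1, 2 after rescaling every library to the same total and 0 to 2 with a library left out, and of their hosts 0, then 1 after rescaling and 0 to 1 with a library left out. These were mmu_circ_0004219 and Acvr2a, whose log2 fold change was -2.03 without TLE 2 and -2.09 without TLE 3. The direction turned when libraries were left out for Acvr2a (-2.09 to 0.18), Smad5 (-1.09 to 0.21), mmu_circ_0010052 (-0.27 to 1.0), mmu_circ_0004221 (-0.3 to 0.44) and mmu_circ_0004222 (-0.44 to 0.22). TLE minus Control in circRNAs detected per library was -1.67, -2.17 to -1.17 with a library left out and 0 at 5 reads. In summed SRPBM it was -27.1, -148 to 92.6 with a library left out and -211 after rescaling every library to the same total. The cause was not tested. Rescaling moved the median of all circRNAs tested from 0.17 to 0.01. Deviations of same-numbered libraries correlated at 0.019, 0.014 and 0.01, and those of differently numbered libraries at -0.024 to 0.009. All were small, so pairing by number was not detected, which does not show that it was absent. A replicate block left the counts at 67 circRNAs, 41 hosts and 0 receptor and Smad circRNAs. Count tests were not run, and the recovered junction reads were used for description only. With at most 10 reads behind a value of Acvr1, Bmpr2, Smad2 or Smad5, counting error limits their comparisons.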
